A study of Mus musculus with 18 samples.

Results

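The NR4A nuclear receptors are encoded in the mouse by 3 genes, Nr4a1, Nr4a2 and Nr4a3. They were chosen by gene symbol and make up 3 of the 45706 genes listed in every expression table. All 3 were matched to one Ensembl gene each, and all 3 passed the filter on low counts, which left 12255 protein-coding and lncRNA genes for testing. The data were 18 bulk RNA-seq libraries of purified CD8+ T cells from OT-1 mice, whose transgenic receptor recognises a peptide of ovalbumin (OVA). Repeat peptide cells met 10 ng/ml peptide on each day up to day 5, with IL-7 and IL-15 in the culture. Single peptide cells met it only for the opening phase and were then washed and kept without it. From day 5 both kinds of cells received either the vehicle DMSO or 1 µM ibrutinib, a covalent inhibitor of BTK and other Tec family kinases, and RNA was taken on day 8. By the study's methods, peptide stayed in the medium of the repeat peptide cells throughout the drug treatment, whereas the single peptide cells had none. The groups were repeat peptide with DMSO (n = 4), repeat peptide with ibrutinib (n = 5), single peptide with DMSO (n = 5) and single peptide with ibrutinib (n = 4).

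The strain entry of every library read wild type, while the genotype entry carried 6 different texts, 4 of which named a Btk knockout. Those texts were used here only as names of 6 experiments, A to F. The texts that named a Btk knockout were those of experiments B, C, D and E, with 13 of the 18 libraries. Experiments A to D supplied a library to every group, experiment E only to repeat peptide with ibrutinib, and experiment F only to single peptide with DMSO. Btk itself could not check these entries, since its level was between 0 and 0.44 TPM in all 18 libraries. Nothing in the labels tied libraries to individual animals, so p-values measure the spread between these libraries. The model was an in vitro culture of a single T cell specificity, and the repeat peptide cells are those the study calls exhausted.

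NR4A proteins are orphan nuclear receptors, for which no ligand is needed for activity, so that their abundance largely sets how active they are. In T cells their genes are induced quickly after the T cell receptor is engaged, through calcium, calcineurin and NFAT and through release of MEF2 factors from repressors, and in many cell types also through CREB at cyclic AMP response elements (CRE). The proteins bind the NBRE element as monomers, and Nr4a1 and Nr4a2 can also pair with retinoid X receptors. Nr4a1 (Nur77) is widely used as a reporter of receptor signal strength, Nr4a2 (Nurr1) is best known from dopamine neurons, Nr4a3 (Nor1) shares much of its function in T cells with Nr4a1, and the family as a whole has been tied to T cell tolerance and exhaustion.

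The bases just before the transcription starts are shown because the 3 genes moved together in what follows. Sequences are from the RefSeq promoter table for GRCm38.p6, matched by symbol for all 3 genes, written 5′ to 3′ on the strand of the gene. Capitals mark each match to the CRE core motif TGACG or its reverse complement. The Nr4a1 sequence is chr15:101266596-101266845 on the plus strand, and the Nr4a2 sequence is chr2:57124004-57124253 on the minus strand. For Nr4a3 the sequence shown is chr4:48045055-48045152 on the plus strand, because an annotated Nr4a3 transcript begins at the following base.
Nr4a1: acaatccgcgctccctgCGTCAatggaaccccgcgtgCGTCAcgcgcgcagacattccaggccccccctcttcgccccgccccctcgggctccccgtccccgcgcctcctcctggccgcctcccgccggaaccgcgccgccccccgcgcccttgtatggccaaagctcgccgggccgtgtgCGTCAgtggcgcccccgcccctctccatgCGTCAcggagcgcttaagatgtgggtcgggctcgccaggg
Nr4a2: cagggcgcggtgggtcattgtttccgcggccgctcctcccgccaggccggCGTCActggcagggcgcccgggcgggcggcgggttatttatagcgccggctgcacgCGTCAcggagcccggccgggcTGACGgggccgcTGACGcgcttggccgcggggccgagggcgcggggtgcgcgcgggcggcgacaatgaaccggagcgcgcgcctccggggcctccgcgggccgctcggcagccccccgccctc
Nr4a3: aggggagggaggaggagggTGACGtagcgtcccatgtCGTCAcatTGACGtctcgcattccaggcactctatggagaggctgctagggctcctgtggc

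Motifs were searched on both strands in the 250 bases before each RefSeq start. Only 1 start per gene was searched, although annotated coding transcripts of Nr4a2 and Nr4a3 also begin elsewhere. The annotated Nr4a1 gene likewise begins upstream of the start searched, at 101254269. Past the stretch shown, the Nr4a3 window lies beyond an annotated transcript start. Nr4a1, Nr4a2 and Nr4a3 each held 4 matches to TGACG, of which 3 of the Nr4a3 matches lie in the stretch shown. At least 1 match was present in 17.8% of 32851 promoters of the same length, and 4 or more were present in 0.137%. The content of G and C bases (GC) was lower in 95.4% of promoters than in the Nr4a1 window. For the Nr4a2 and Nr4a3 windows that share was 98.8% and 79.96%. The promoters compared were not matched for GC content. The motif shares given here therefore do not show how common such matches are among promoters of similar GC content. No window held the full CRE TGACGTCA, which contains the core motif on both strands. The GGGCGG box of SP and KLF factors matched 3 times in Nr4a1, 4 times in Nr4a2 and 1 time in Nr4a3, against at least 1 match in 32.7% of promoters. Of the 3 windows, only that of Nr4a2 matched the MEF2 site (2.92% of promoters). It also held a match to the TATA box TATAAA that lies inside that site (12.4% of promoters). The NFAT core GGAAA (55.6% of promoters) matched in the Nr4a2 window alone as well. The NBRE AAAGGTCA, the AP-1 motif TGANTCA, the CArG box of SRF and the EGR core GCGTGGGCG matched in none of the 3 windows, and were present in 1.34%, 6.75%, 1.47% and 0.536% of promoters. These matches describe letters in a window and not binding, and no binding data were analysed here.

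**Figure D1:**
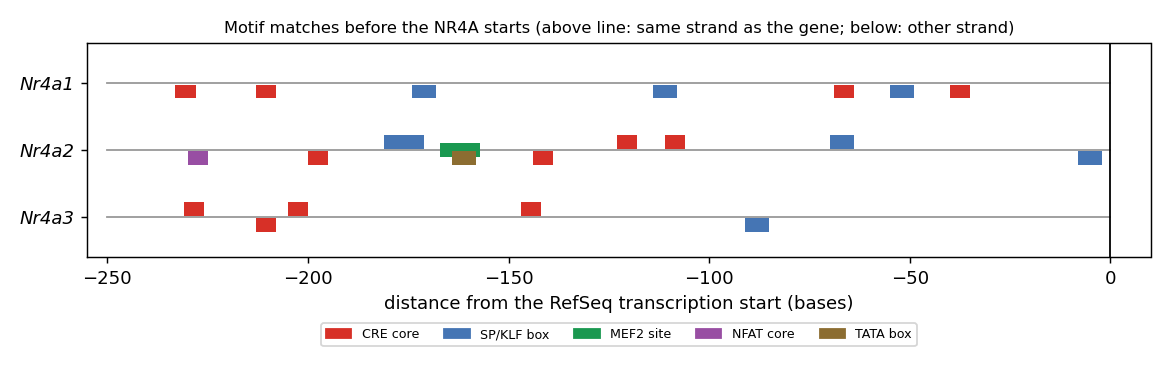
Positions of motif matches in the 250 bases before the RefSeq transcription start of each NR4A gene, in bases from the start, with boxes above the line for matches on the strand of the gene and below it for the other strand. Each gene has 4 CRE core matches, and only Nr4a2 has a MEF2 site, drawn across the line with the TATA box inside it.

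The libraries held between 23445922 and 51995372 estimated counts, with a median of 27420966. The summed level of 8 CD8+ T cell and pan-T markers was 3535 to 5365 TPM. CD4+ T cell, B cell, myeloid, erythroid and dendritic cell markers each summed to at most 8.75 TPM in any library. The NK cell pair, Ncr1 and Klrb1c, reached 25.6 TPM in a repeat peptide library with ibrutinib against 11.4 TPM at most with DMSO, mainly from Klrb1c, and its part in the results was not tested. In bulk RNA, fewer cells expressing a gene and less RNA of that gene per cell cannot be told apart.

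Nr4a1 (ENSMUSG00000023034, chromosome 15, 101254269 to 101274795, plus strand, GRCm38) was at 25.6, 21.1, 37.4 and 41.2 TPM in the repeat peptide libraries with DMSO of experiments A to D. With ibrutinib the repeat peptide libraries of experiments A to E held 12.2, 7.83, 16.5, 11.6 and 6.53 TPM. All 5 of those lay below all 4 libraries with DMSO. In single peptide cells with DMSO Nr4a1 was at 2.83, 2.15, 2.87 and 1.43 TPM in experiments A to D and at 3.11 TPM in experiment F. Single peptide cells with ibrutinib held 0.54, 1.22, 1.14 and 0.32 TPM. The 4 groups thus did not overlap anywhere in the order repeat DMSO, repeat ibrutinib, single DMSO, single ibrutinib, with means of 31.3 ± 9.51 (SD, n = 4), 10.9 ± 3.92 (n = 5), 2.48 ± 0.686 (n = 5) and 0.805 ± 0.443 TPM (n = 4).

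Nr4a2 (ENSMUSG00000026826, chromosome 2, 57106830 to 57124003, minus strand) was the most even member in repeat peptide cells with DMSO, at 32.2, 29.1, 36.0 and 29.9 TPM in experiments A to D. Ibrutinib libraries of repeat peptide cells held 17.5, 21.4, 21.7, 14.8 and 10.5 TPM in experiments A to E. Every value with ibrutinib was below every value with DMSO. Without repeat peptide the level dropped to 2.29, 1.63, 1.79 and 0.90 TPM in experiments A to D and 1.74 TPM in experiment F with DMSO. Those of single peptide cells with ibrutinib were 0.76, 0.86, 0.57 and 0.35 TPM. The order of the groups was that of Nr4a1, again without overlap, and the means were 31.8 ± 3.10 (SD, n = 4), 17.2 ± 4.70 (n = 5), 1.67 ± 0.500 (n = 5) and 0.635 ± 0.225 TPM (n = 4).

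Nr4a3 (ENSMUSG00000028341, chromosome 4, 48045153 to 48086447, plus strand) was at 26.0, 13.4, 28.7 and 30.8 TPM in repeat peptide cells with DMSO, with experiment B well below the other 3. In repeat peptide cells with ibrutinib it was at 9.03, 9.02, 13.3, 9.83 and 5.68 TPM in experiments A to E. The highest ibrutinib value, 13.30 TPM in experiment C, was just under the lowest DMSO value, 13.35 TPM in experiment B. Single peptide cells with DMSO held 2.64, 2.29, 2.68 and 0.93 TPM in experiments A to D and 1.91 TPM in experiment F. Adding ibrutinib to single peptide cells left 0.51, 0.53, 0.47 and 0.38 TPM. The means were 24.7 ± 7.82 (SD, n = 4), 9.37 ± 2.72 (n = 5), 2.09 ± 0.719 (n = 5) and 0.473 ± 0.0665 TPM (n = 4), in the same order of groups without overlap. How many of all tested genes separate the 4 groups in this way was not computed, so the lack of overlap does not set the 3 genes apart.

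In single peptide cells experiment D gave the lowest TPM of all 3 genes, both with DMSO and with ibrutinib. In repeat peptide cells with DMSO experiment D gave the highest TPM of Nr4a1 and Nr4a3. By normalized counts, Nr4a3 in single peptide cells with ibrutinib was instead lowest in experiment B, at 55.3 against 59.6 in D. TPM divides by the effective transcript length that RSEM estimated in each library. For Nr4a3 that length ran from 2928 to 5054 bases among the single peptide libraries with DMSO, while for Nr4a1, listed with 1 transcript, its highest value was at most 1.03 times its lowest within any group. Depth was thinnest in single peptide cells with ibrutinib, where a member had between 22 and 90 estimated counts per library.

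**Figure D2:**
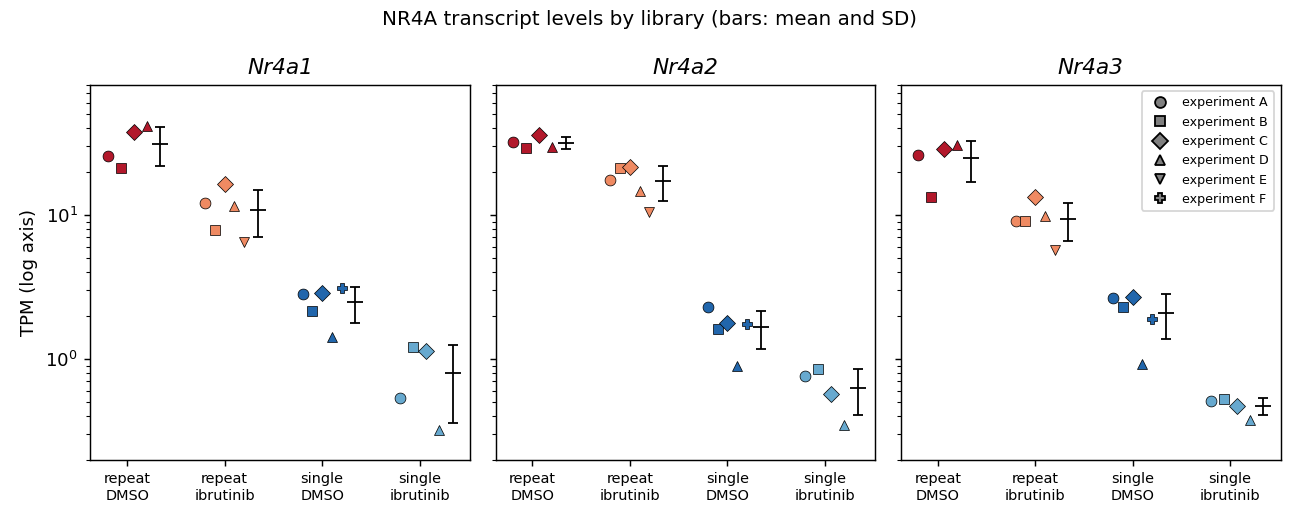
Level of each NR4A gene in every library, in TPM on a log axis, by group, with marker shape for the experiment and bars for the mean and SD. In all 3 genes the groups step down from repeat DMSO to single ibrutinib without overlapping, from means of 24.7 to 31.8 TPM to means of 0.473 to 0.805 TPM. The share of all tested genes that separate the groups in this way was not computed.

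Repeat peptide stimulation raised all 3 genes in cells with DMSO, which is the comparison of cells the study calls exhausted with their controls. Nr4a2 rose the most, 19.3-fold (log2 fold change 4.27, SE 0.170, adjusted p = 5.12e-12). Nr4a3 was 12.4-fold higher (log2 3.63, SE 0.238, adjusted p = 1.46e-09) and Nr4a1 11.4-fold higher (log2 3.52, SE 0.329, adjusted p = 1.13e-07). Here and below the test was the edgeR quasi-likelihood test with Benjamini-Hochberg adjustment over all 12255 genes, and a call needed an adjusted p under 0.05, a normalized count averaging 50 or more, and a log2 fold change beyond 0.2 in either direction. Of all tested genes 22.8% were called higher in this comparison and 24.2% lower. Within experiments A to D the normalized counts of Nr4a1 were 8.35-fold to 22.1-fold higher after repeat peptide, those of Nr4a2 15.4-fold to 24.7-fold and those of Nr4a3 8.75-fold to 22.3-fold. Experiment D gave the highest ratio for each gene.

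The rise with repeat peptide was also present under ibrutinib. Nr4a2 was 23.7-fold higher in repeat than in single peptide cells (log2 4.57, SE 0.190, adjusted p = 1.71e-11), Nr4a3 16.4-fold (log2 4.04, SE 0.268, adjusted p = 4.33e-09) and Nr4a1 12.0-fold (log2 3.59, SE 0.365, adjusted p = 5.35e-07). Among all genes 18.7% were called higher and 19.6% lower. The spread between experiments was widest for Nr4a1, from 5.63-fold in experiment B to 29.8-fold in experiment D, and all 4 experiments gave a higher value in repeat peptide cells for each gene.

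Ibrutinib lowered all 3 genes in repeat peptide cells, the comparison that asks what the drug does in cells whose stimulation continues. The mean normalized count of Nr4a1 was 606 ± 205 (SD, n = 5) with ibrutinib against 1624 ± 518 (n = 4) with DMSO, a 2.68-fold lower level (log2 -1.42, SE 0.305, adjusted p = 0.00823). For Nr4a3 it was 1086 ± 295 against 2716 ± 729, 2.50-fold lower (log2 -1.32, SE 0.220, adjusted p = 0.00131). Nr4a2 changed least, 1262 ± 231 against 2263 ± 174, which is 1.79-fold lower (log2 -0.84, SE 0.150, adjusted p = 0.00208). In this comparison 1.92% of all tested genes were called lower and 4.01% higher, and with experiment as a block 5.35% and 8.47%. Each gene was lower in 4 of 4 experiments, by 2.05-fold to 3.29-fold for Nr4a1, 1.54-fold to 1.91-fold for Nr4a2 and 2.01-fold to 2.81-fold for Nr4a3. All 3 calls held without any single library, while on log2(TPM + 0.1) with limma the Nr4a2 difference of -0.93 had an adjusted p of 0.0747.

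In single peptide cells the 3 genes were also lower with ibrutinib. Nr4a3 was 3.31-fold lower, 65.9 ± 12.4 (SD, n = 4) against 219 ± 62.2 normalized counts (n = 5), with log2 -1.73, SE 0.253 and adjusted p = 0.00185. Nr4a1 was 2.82-fold lower, at 50.02 ± 28.9 against 142 ± 33.5 (log2 -1.50, SE 0.351, adjusted p = 0.0243), and Nr4a2 2.20-fold lower, 53.0 ± 12.1 against 117 ± 20.6 (log2 -1.14, SE 0.178, adjusted p = 0.00247). Of all tested genes 2.69% were called lower and 0.351% higher, and with experiment as a block 6.32% lower and 2.77% higher. Every experiment of the 4 gave a lower value with ibrutinib for each gene. For Nr4a1 the ratio was 4.89-fold in experiment A and 4.42-fold in experiment D, but 1.84-fold in B and 2.15-fold in C. The Nr4a1 call depended on single libraries: its adjusted p was 0.0666 without the DMSO library of experiment C, 0.108 without the ibrutinib library of experiment A and 0.0855 without that of experiment D.

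**Figure D3:**
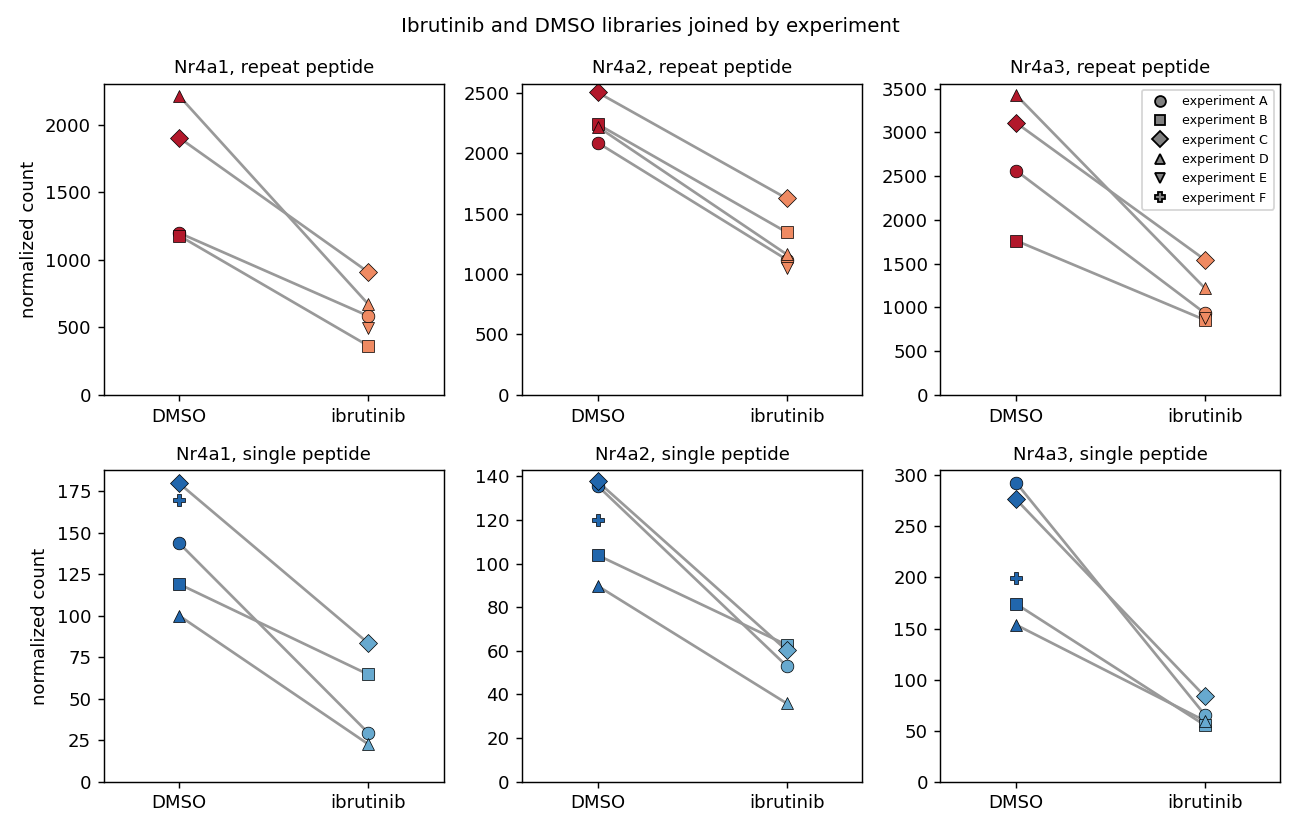
Normalized counts of each NR4A gene with DMSO and with ibrutinib, in repeat peptide cells (top) and single peptide cells (bottom), with a line joining the libraries of an experiment and separate axes from 0 in each panel. All 24 lines slope down, and the unjoined points are experiments E and F, which lack a partner.

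The size of the ibrutinib effect did not differ detectably between the stimulations. The difference of the log2 fold changes, repeat minus single, was 0.07 for Nr4a1 (95% confidence interval -0.87 to 1.01, adjusted p = 0.981). For Nr4a2 it was 0.29 (-0.19 to 0.78, adjusted p = 0.734) and for Nr4a3 0.41 (-0.29 to 1.10, adjusted p = 0.748). With edgeR 0 of the 3 had an unadjusted p under 0.05, and 1.26% of all genes were called in either direction. DESeq2 called 0 of 3, where it called 350 of all 12255 tested genes. The upper limits of the intervals correspond to differences of 2.02-fold for Nr4a1, 1.72-fold for Nr4a2 and 2.14-fold for Nr4a3, so equal effects are not shown. By experiment the Nr4a1 difference ran from -0.81 in B to 1.25 in A, while that of Nr4a3 was 0.61 to 0.72 in A, B and C and -0.12 in D. With an offset for effective length the Nr4a3 difference was 0.71 (adjusted p = 0.489). The main edgeR fit did not use the pairing of libraries by experiment. With experiment as a block in edgeR the difference was 0.06 for Nr4a1 (SE 0.406, adjusted p = 0.964). For Nr4a2 it was then 0.34 (SE 0.187, adjusted p = 0.365) and for Nr4a3 0.50 (SE 0.254, adjusted p = 0.307).

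Ibrutinib did not bring repeat peptide cells down to the level of untreated single peptide cells. Nr4a2 was still 10.8-fold higher in repeat peptide cells with ibrutinib than in single peptide cells with DMSO (log2 3.43, SE 0.161, adjusted p = 7.14e-11). Nr4a3 was 4.96-fold higher (log2 2.31, SE 0.222, adjusted p = 4.56e-07) and Nr4a1 4.27-fold higher (log2 2.09, SE 0.308, adjusted p = 4.92e-05), where 16.7% of all genes were called higher. These 5 comparisons share libraries, so their values are not independent of each other.

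**Figure D4:**
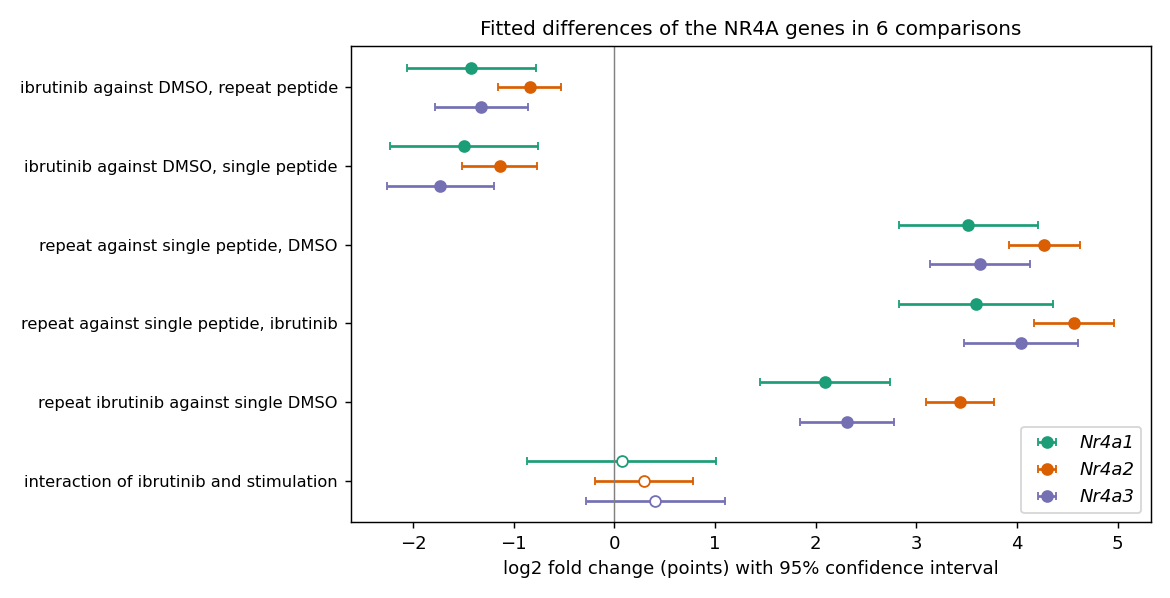
Fitted log2 fold change of each NR4A gene in the 6 comparisons, with bars for the 95% confidence interval, filled points for calls and open points for values that were not called. The drug comparisons lie between -1.73 and -0.84, the stimulation comparisons between 3.52 and 4.57, and the 3 interaction values have intervals that include 0.

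Each member's share of the family varied between groups. Summed over the 3 genes the level was 87.8 ± 18.3 TPM (SD, n = 4) in repeat peptide cells with DMSO, 37.5 ± 10.2 TPM (n = 5) with ibrutinib, 6.24 ± 1.78 TPM (n = 5) in single peptide cells with DMSO and 1.91 ± 0.661 TPM (n = 4) with ibrutinib. Nr4a2 was the highest of the 3 genes per length in 5 of 5 repeat peptide libraries with ibrutinib and the lowest in 5 of 5 single peptide libraries with DMSO. Its share of the sum was 46.1% ± 5.92 and 26.8% ± 1.93 in those groups, against 37.2% ± 6.85 in repeat peptide cells with DMSO and 33.6% ± 6.49 in single peptide cells with ibrutinib. The ratio of Nr4a2 to Nr4a3 in TPM was 0.969 to 2.18 in repeat peptide cells with DMSO. In single peptide cells with DMSO it was 0.668 to 0.968, so that the ranges nearly touched. The nearest values, 0.969 and 0.968, both came from experiment D, where the log2 difference was 0.0021. Within experiments A to D, ibrutinib in repeat peptide cells went with a higher ratio of Nr4a2 to Nr4a3 in 4 of 4, by 0.12 to 0.65 on the log2 scale, and with a lower ratio of Nr4a1 to Nr4a2 in 4 of 4, by -0.99 to -0.19. In single peptide cells the first ratio was higher in 3 of 4 and the second lower in 2 of 4. Those 2 counts depend on the effective lengths behind TPM. In experiment D the first ratio was lower in TPM, but by normalized counts Nr4a2 fell less (log2 -1.32) than Nr4a3 (-1.37). In experiment B the second ratio was higher in TPM, but by normalized counts Nr4a1 fell more (-0.88) than Nr4a2 (-0.73). These ratios were looked at after the levels were seen and are given with no test.

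The NR4A genes were next set beside the other nuclear receptors, of which most act as ligand-dependent transcription factors. Of 49 receptor genes looked up, members included, 26 were tested. By mean TPM in repeat peptide cells with DMSO, Nr4a2 ranked 3, Nr4a1 ranked 4 and Nr4a3 ranked 6 among them, behind Nr1h2 (the oxysterol receptor LXR beta) at 70.9 TPM and Rxrb (a retinoid X receptor) at 52.2 TPM. With ibrutinib they ranked 7, 8 and 11, in single peptide cells with DMSO 20, 16 and 18, and in single peptide cells with ibrutinib 22, 20 and 23. Among the 23 other receptors tested, 11 fell and 1 rose with repeat peptide in cells with DMSO, with a median log2 difference of -0.50, against 24.2% of all genes called lower and 22.8% called higher. Ibrutinib raised 3 and lowered 0 of them by edgeR in repeat peptide cells, against 4.01% and 1.92% of all genes. Among the 23, 9 had an unadjusted p under 0.05. DESeq2 called 6 higher and 0 lower, where it called 1165 of all 12255 tested genes, 712 of them higher. The fit with experiment as a block called 8 higher and 0 lower, against 8.47% and 5.35% of all genes. The 3 raised by edgeR were Nr1d2, a repressor of the circadian clock (log2 1.20, SE 0.220, adjusted p = 0.00259), the thyroid hormone receptor Thra (log2 0.81, SE 0.164, adjusted p = 0.00533) and Rora, a clock activator (log2 0.72, SE 0.174, adjusted p = 0.0165). All 3 were lower in repeat than in single peptide cells with DMSO, by log2 -2.51, -1.70 and -0.69.

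**Figure D5:**
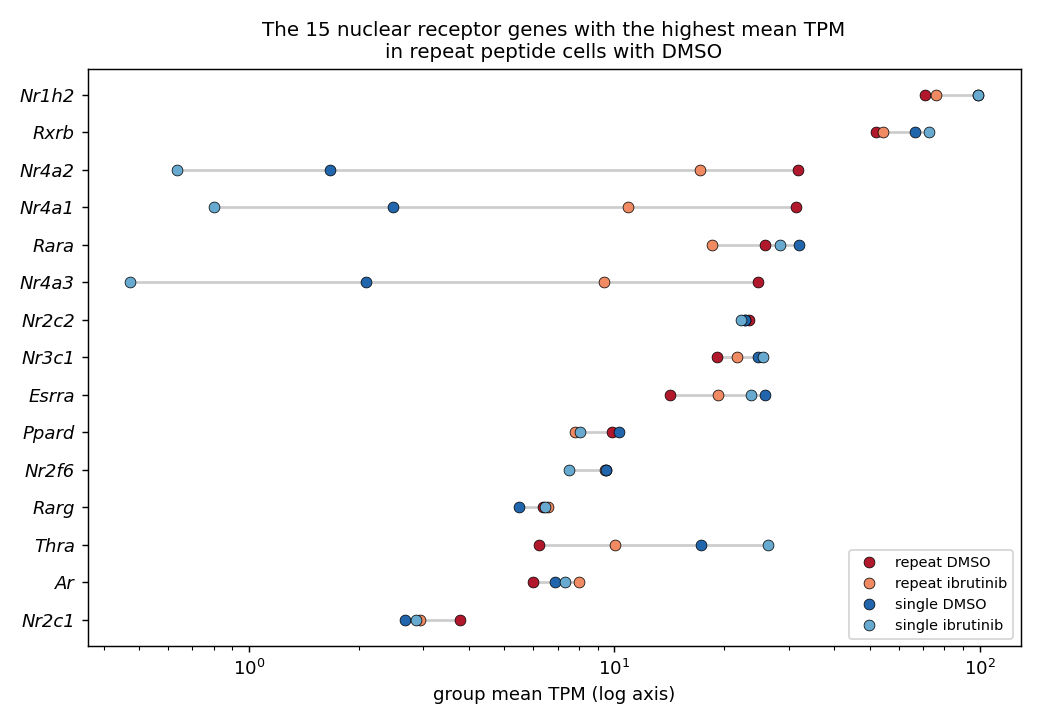
Group mean TPM, on a log axis, of the 15 tested nuclear receptor genes with the highest mean in repeat peptide cells with DMSO, with a point for each group. The NR4A genes span the widest range, for example from 0.635 to 31.8 TPM for Nr4a2, while Nr2c2 lies between 22.2 and 23.4 TPM in all 4 groups.

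Genes known to act upstream of NR4A transcription were tested next, since they include calcineurin, NFAT, MEF2 and CREB components. Of 24 tested, edgeR called 0 with ibrutinib in repeat peptide cells, against 1.92% of all tested genes lower and 4.01% higher. At such shares 0 calls in a list of 24 does not set it apart from other genes. Of the 24, 5 had an unadjusted p under 0.05 and DESeq2 called 1 lower. The fit with experiment as a block called 3 higher, against 8.47% of all tested genes. Their median log2 difference was 0.02, against 0.0045 over all tested genes. With single peptide edgeR called 0, against 2.69% of all tested genes lower and 0.351% higher, 3 had an unadjusted p under 0.05 and DESeq2 called 0. Repeat peptide in cells with DMSO raised 5 (20.8%) and lowered 8 (33.3%) of the 24, against 22.8% and 24.2% of all tested genes. Mef2c (log2 7.30, edgeR adjusted p = 2.68e-06) and Hdac9 (log2 -1.46, adjusted p = 0.0149) were kept out of those counts only by their low mean counts. Another 11 tested genes were partners and corepressors, such as the retinoid X receptors and the nuclear receptor corepressors. With ibrutinib in repeat peptide cells edgeR called 0 of the 11, against 1.92% of all genes lower and 4.01% higher. Of the 11, 3 had an unadjusted p under 0.05, and DESeq2 called 2 higher and 1 lower. The fit with experiment as a block called 4 higher and 1 lower, against 8.47% and 5.35% of all genes. With single peptide 0 of the 11 were called by edgeR, against 2.69% of all genes lower and 0.351% higher. There 1 of the 11 had an unadjusted p under 0.05, and DESeq2 called 0. Repeat peptide lowered 7 of the 11 and raised 0 by edgeR in cells with DMSO, against 24.2% and 22.8% of all genes, where 8 had an unadjusted p under 0.05 and DESeq2 raised 1.

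Inhibitory receptors and factors that have been studied together with NR4A proteins in exhausted cells made up a further list. Of 11 exhaustion genes tested, 11 rose with repeat peptide in cells with DMSO (median log2 2.58; 22.8% of all genes), and ibrutinib lowered 4 and raised 0 in repeat peptide cells (1.92% and 4.01% of all genes), with a median of -0.72 and with 6 at an unadjusted p under 0.05. The 4 were the inhibitory receptors Pdcd1 (log2 -1.17, SE 0.169, adjusted p = 0.000412), Tigit (-1.07, SE 0.268, adjusted p = 0.0211) and Lag3 (-0.93, SE 0.201, adjusted p = 0.00887) and the exhaustion factor Tox (-0.72, SE 0.170, adjusted p = 0.0143). With single peptide, ibrutinib lowered 3 and raised 0, against 2.69% and 0.351% of all genes. Among the 3 were Tigit, lower by 1.66, and Lag3, lower by 1.18 on the log2 scale. Genes of the exhaustion list were picked with their known link to this state, so the direction of their change with repeat peptide is not independent evidence about the NR4A genes.

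Ibrutinib lowered 5 of 10 effector genes in repeat peptide cells and raised 0 by edgeR, against 1.92% and 4.01% of all genes, and 5 had an unadjusted p under 0.05. DESeq2 also lowered 5 and raised 0, where it called 1165 of all 12255 tested genes, 712 of them higher. The largest changes were in the cytokine Ifng (log2 -1.78, SE 0.492, adjusted p = 0.0360), the pore-forming protein Prf1 (-1.47, SE 0.317, adjusted p = 0.00849), Irf4, a factor whose level follows receptor signal (-1.30, SE 0.186, adjusted p = 0.000373), and the granule protease Gzmb (-1.12, SE 0.251, adjusted p = 0.0110). With single peptide 4 fell, Ifng and Gzmb among them, and 0 rose, against 2.69% and 0.351% of all genes. With experiment as a block 5 fell and 1 rose there, against 6.32% and 2.77% of all genes. Repeat peptide in cells with DMSO raised 5 and lowered 1, against 22.8% and 24.2% of all genes.

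The immediate early genes, the class to which the NR4A genes belong, were mixed. Of 28 tested, ibrutinib lowered 3 and raised 1 in repeat peptide cells (1.92% and 4.01% of all genes), with a median of 0.01. With experiment as a block it lowered 6 and raised 1, against 5.35% and 8.47% of all genes. Atf3, a stress-induced factor, fell the most (log2 -2.07, SE 0.504, adjusted p = 0.0178), with the ERK phosphatase Dusp5 (-1.07, SE 0.160, adjusted p = 0.000516) and the ERK pathway inhibitor Spry2 (-0.98, SE 0.215, adjusted p = 0.00965) behind it. Jun, a subunit of AP-1, rose (log2 1.32, SE 0.312, adjusted p = 0.0147). Repeat peptide in cells with DMSO raised 12 of the 28 and lowered 3, against 22.8% and 24.2% of all genes, and Jun was among those that fell, by 2.21 on the log2 scale. Under single peptide ibrutinib lowered 1 and raised 1, against 2.69% and 0.351% of all genes.

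Across the 18 libraries the log2 CPM of the members rose and fell together, with Pearson r of 0.962 between Nr4a1 and Nr4a2, 0.981 between Nr4a1 and Nr4a3 and 0.978 between Nr4a2 and Nr4a3. Differences between the groups enter these values, as they do for every gene changed by stimulation. After the group means were taken out, r was 0.686, 0.653 and 0.571. These are descriptions over libraries that share experiments and depth. Among 10461 other genes with a mean normalized count of at least 50, Gzmb was the most like Nr4a1 (r = 0.986), followed by the zinc finger repressor Zbtb32 and the kinase Nek6 (both 0.981), the costimulatory receptor Tnfrsf9 (0.978) and Ybx3 (0.978). For Nr4a2 it was Lag3 (r = 0.996), followed by Bspry (0.994), the phosphatase Ptpn3 (0.993), the membrane protease St14 (0.992) and the formin Fmnl3 (0.991). Nr4a3 was closest to Tnfrsf9 (r = 0.987), followed by Arhgef25 (0.982), Gzmb (0.981), Nek6 (0.979) and the kinase Plk2 (0.978). On log2(TPM + 1) 3 of the 5 for Nr4a1, 4 of the 5 for Nr4a2 and 0 of the 5 for Nr4a3 were again among the closest 5. After removal of group means the closest genes included Kcnq5, Tgif2, Lag3 and Zbtb32 for Nr4a1 (r = 0.826 to 0.850), Klhl12, Acd, Trib1, Itgb2 and Vwa8 for Nr4a2 (0.773 to 0.804) and Penk, Gstt3, Josd1, Dhx29 and Bcat1 for Nr4a3 (0.821 to 0.851). Of these lists 0 of 5, 1 of 5 and 1 of 5 genes were again among the closest 5 on log2(TPM + 1), so they depend on the scale, and Penk had an r of 0.696 there.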

How the data were processed

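RNA-seq libraries of OT-1 CD8+ T cells were made by the study with poly(A) selection and a directional kit. According to the submitters' processing notes, Trim Galore, SAMtools 1.10 and RSEM 1.3.1 were used with GRCm38, and the study's methods name STAR as the aligner run by RSEM. The deposited expected counts are the authors' RSEM estimates per gene, not normalized and not always whole, and were rounded here. The deposited TPM values are the authors' RSEM estimates, scaled to transcript length and library; the deposited effective length (bases) is the length behind them. The tables hold no p-values or fold changes.

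Protein-coding and lncRNA genes (27903, from GENCODE M21) were filtered with filterByExpr, leaving 12255, normalized by TMM and fitted in edgeR 4.0.16 (R 4.3.3; glmQLFit, robust) as 4 groups over 18 libraries. Normalized counts are the counts scaled by TMM library size. Calls used the study's thresholds. A fit with DESeq2 1.42.0, limma 3.58.1 on log2 TPM with a pseudocount of 1 or 0.1, and others were alternatives. The script was tested on simulated data. TPM was used to compare genes, since it is per length.

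The members and gene lists were chosen with earlier results of these data known. Named genes were the 3 members, up to 4 called genes of each list with the largest change for ibrutinib in repeat peptide cells, and the 5 genes most like each member, of which 1 is not reported here. Nr1h2, Rxrb and Nr2c2 were named in addition, after their levels were seen, as were values of named genes in other comparisons.

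Deviations from group means correlated above 0.1 in 24 of 24 library pairs of the same experiment (0.160 to 0.494). Of 97 other pairs 7 did so, with a median of -0.08 and a range of -0.440 to 0.404 that overlaps the first. The experiments, named from the genotype entry, were on this ground taken to pair the libraries. No 2 libraries of a group agreed within counting noise. All expected counts of the 3 members were whole. Estimated counts between 23445922 and 51995372 per library limit precision most where members had under 100 counts.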

Additional observations from a re-analysis of the deposited data

How the results depend on the processing

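Over the alternatives, 265 of 273 values of the 3 genes outside the interaction kept their direction and their side of the threshold, 8 kept the direction but lost the call, and 0 reversed. The losses for ibrutinib in single peptide cells were Nr4a1 when low counts were left unfiltered (-1.50, adjusted p = 0.0516), with only the compared groups in the fit (-1.50, adjusted p = 0.0759) and on log2(TPM + 1) with limma (-0.96, adjusted p = 0.0815), Nr4a2 on log2(TPM + 1) (-0.70, adjusted p = 0.105), and Nr4a1 in 3 of the fits without a library. The loss in repeat peptide cells was Nr4a2 on log2(TPM + 0.1) (-0.93, adjusted p = 0.0747). The interaction, called under no alternative, changed sign on log2(TPM + 1), to -0.50 for Nr4a1, -0.19 for Nr4a2 and -0.25 for Nr4a3. The pseudocount shrinks differences of low values there by construction.

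With experiment as a replicate block no call of the 3 genes changed, and the genes called rose from 726 to 1694 for ibrutinib in repeat peptide cells, from 373 to 1114 in single peptide cells and from 154 to 679 for the interaction. The split with the block was 1038 higher and 656 lower in repeat peptide cells, against 491 and 235, and 340 higher and 774 lower in single peptide cells, against 43 and 330. The DESeq2 Wald test called 1165, 612 and 350. With only the compared groups 464 and 181 were called for ibrutinib in repeat and single peptide cells. On log2(TPM + 1) the counts were 391, 161 and 77, and on log2(TPM + 0.1) 272, 241 and 58. For repeat against single peptide under ibrutinib these were 2994 and 2992, against 4703, and for repeat ibrutinib against single DMSO 2493 and 2494, against 4028. The cause was not tested.

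With each library left out in turn, the Nr4a1 difference for ibrutinib in single peptide cells ran from -1.87 to -1.27, and the Nr4a1 interaction from -0.14 to 0.45, with 6 of 18 fits below 0. The counts of called genes ran from 354 to 874 for ibrutinib in repeat peptide cells, from 131 to 391 in single peptide cells and from 84 to 171 for the interaction. Counts moved by over 1.5 times for ibrutinib in repeat peptide cells without the repeat DMSO library of experiment C (393) or D (354) or the repeat ibrutinib library of A (478). In single peptide cells they did so without the single DMSO library of C (198) or D (239) or the single ibrutinib library of A (131), B (205) or D (152), and for the interaction without the repeat DMSO library of C (84) or the single ibrutinib library of D (89).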
